A study of Mus musculus with 8 samples.

Results

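The forkhead genes Foxc1, Foxc2, Foxf1, Foxf2, Foxp1, Foxp2, Foxp4 and Foxo1, grouped here as 8 mesodermal forkhead factors, were followed in mouse embryos that lacked Isl1. They were chosen by symbol, with no threshold on their measured values, and made up 8 of the 20701 gene symbols in the deposited table and 8 of its 44 forkhead symbols. For a symbol with several transcript entries, the entry with the highest summed read count was used. The RNA came from pharyngeal mesoderm and hearts of C57BL/6 embryos at E8.75 of embryonic development (6 somites), 4 Isl1-/- (knockout) and 4 wild-type, with 1 embryo per library. Isl1 encodes a LIM-homeodomain factor of cardiac progenitor cells, and RNA-Seq was used to ask which transcripts change in the early heart region when it is missing. The labels give the knockout as a homozygous allele with no Cre or transgene, and each library mixed the cells of the whole dissected region. Fewer cells of a type and less RNA per cell cannot be told apart in such samples.

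Forkhead proteins bind DNA through a winged-helix domain that is shared across the family. Foxc1 and Foxc2 act together in paraxial and pharyngeal mesoderm and in the outflow tract, Foxf1 and Foxf2 are targets of hedgehog signalling in splanchnic mesoderm, the Foxp proteins repress transcription with corepressors of the CtBP and NuRD type, and Foxo1 is kept out of the nucleus when the PI3K-Akt pathway phosphorylates it. Foxf1 with Foxc2, and Foxf2 with Foxc1, lie near each other in the genome as copies of 1 ancestral cluster.

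In the mm9 genome (GENCODE vM1 annotation), Foxf1 (NM_010426, annotated there as Foxf1a) spans 123608286 to 123610851 on the plus strand of chromosome 8. Foxc2 (NM_013519) follows at 123640071 to 123642792, also on the plus strand, with 29219 bases between them. Foxf2 (NM_010225) spans 31717685 to 31723272 on the plus strand of chromosome 13, and Foxc1 (NM_008592) follows at 31898515 to 31902504, with 175242 bases between them. The other members lie apart from these clusters. Foxp1 (NM_001347345) is on the minus strand of chromosome 6 from 98875332 to 99216526, and Foxp2 (NM_053242) is on the plus strand of that chromosome from 14851349 to 15391977. Foxp4 (NM_001110824) is on the minus strand of chromosome 17 from 48004082 to 48061594, and Foxo1 (NM_019739) is on the plus strand of chromosome 3 from 52072259 to 52154031.

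The paired members share stretches of coding sequence. For 3 pairs, the stretch of 90 coding bases with the most identical positions is shown, read 5′ to 3′ from the annotated transcripts, because it marks where the count of 1 gene could take reads of the other. Capitals mark the positions at which the 2 genes differ.
Foxc1: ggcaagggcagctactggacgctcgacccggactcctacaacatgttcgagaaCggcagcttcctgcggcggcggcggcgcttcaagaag
Foxc2: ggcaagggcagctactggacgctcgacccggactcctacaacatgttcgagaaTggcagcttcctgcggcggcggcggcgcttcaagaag
Foxf1: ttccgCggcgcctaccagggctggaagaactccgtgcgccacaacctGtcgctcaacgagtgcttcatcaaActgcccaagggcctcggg
Foxf2: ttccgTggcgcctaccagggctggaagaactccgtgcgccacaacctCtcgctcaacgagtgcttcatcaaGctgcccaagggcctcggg
Foxp1: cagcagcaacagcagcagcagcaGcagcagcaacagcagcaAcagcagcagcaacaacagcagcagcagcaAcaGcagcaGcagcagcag
Foxp2: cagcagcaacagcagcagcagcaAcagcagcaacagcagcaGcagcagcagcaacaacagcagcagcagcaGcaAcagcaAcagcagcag

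The Foxc1 and Foxc2 stretches, at coding bases 439 to 528 and 418 to 507, were identical at 89 of 90 positions, with an unbroken run of 53. The Foxf1 and Foxf2 stretches, at 253 to 342 and 409 to 498, were identical at 87 of 90 positions, with a longest run of 41. The Foxp1 and Foxp2 stretches, at 229 to 318 and 532 to 621, lie in a repeat of glutamine codons and were identical at 85 of 90 positions. Searched over the whole coding sequences, the longest identical run of that pair was 35. Foxp1 and Foxp4 were less alike, with 73 of 90 positions in their closest stretch and a longest run of 21 over the whole coding sequences. The read length and the handling of reads that match both genes are not given in the sources used here. The counting took no account of strand, and a gene and an overlapping antisense gene cannot be told apart. Counts of Foxc1 and Foxc2, of Foxf1 and Foxf2, and of Foxp1 and Foxp2 therefore carry an uncertainty at these stretches. The length of 90 bases was set in advance, and coding sequences ran from 1137 to 2220 bases. How much more sequence the pairs share, and how many reads, was not measured.

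Library totals ran from 23480470 to 26153039 counts in wild-type and from 18916452 to 25047013 in knockout embryos. Isl1, given in CPM (counts relative to the library total, scaled by TMM), ran from 9.72 to 26.9 in wild-type and from 1.78 to 2.40 in knockout embryos (edgeR FDR 0.0041). Some libraries stood apart. Knockout embryo 2 was labelled total RNA and the other 7 polyA RNA. Y-linked genes were at or near 0 in wild-type embryos 1, 2 and 3 and, among the knockouts, in embryo 2, so 3 of 4 wild-type embryos and 1 of 4 knockout embryos lacked Y-linked RNA. Of 10 cardiomyocyte markers, all 10 were lower in the knockout and 8 passed the FDR of 0.05, with summed levels of 3006 to 4476 CPM in wild-type and 1613 to 2436 CPM in knockout embryos. The count past the FDR was 5 in limma, 9 in DESeq2 and 4 to 10 with 1 embryo left out, the 10 without wild-type embryo 3. Wild-type embryo 3 had a cardiomyocyte score (mean of log2 CPM centred over the 8 embryos) of 0.021, while the rest of its genotype had 0.607 to 0.712, and the lowest erythroid score, -1.60. Of the cell type lists, visceral and yolk sac endoderm markers varied most between libraries, with summed levels of 533 to 4649 CPM in wild-type and 422 to 6750 CPM in knockout embryos. None of the other 8 lists of cell type markers held a gene past the FDR by edgeR, while the endothelial, pharyngeal mesoderm and endoderm lists held 2, 3 and 1 genes with an unadjusted p under 0.05 and DESeq2 called 1 gene, Hhex. By edgeR, 17.4% of all genes tested had an unadjusted p under 0.05. Of the markers of the labelled tissue, those of cardiomyocytes and 9 of 10 of pharyngeal and splanchnic mesoderm were detected well enough to be tested.

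No member passed a test of change between the genotypes. By edgeR, 0 of 8 passed an FDR of 0.05, while 0.973% of the 14075 genes tested did. At an unadjusted p under 0.05, 0 of 8 were called against 17.4% of all genes, and 0 of 8 met the thresholds of the study (log2 fold change beyond 0.58 and unadjusted p under 0.05) against 3.93% of all genes. The wild-type and knockout values overlapped in all 8 members, while they did not overlap in 10.3% of genes. DESeq2 and limma on log2(RPKM + 1) also called 0 of 8. The 8 members split evenly, 4 with higher and 4 with lower estimates, and their median absolute log2 fold change was 0.095, against 0.134 over all genes tested.

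How large a change these data left room for differed from gene to gene. The 95% interval of the log2 fold change lay wholly within 0.58 of 0, a 1.5-fold change, for 3 members, Foxp1, Foxp2 and Foxp4, while the same was true of 68.5% of all genes. For the other 5, Foxc1, Foxc2, Foxf1, Foxf2 and Foxo1, the interval reached beyond a 1.5-fold change in at least 1 direction.

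**Figure D1:**
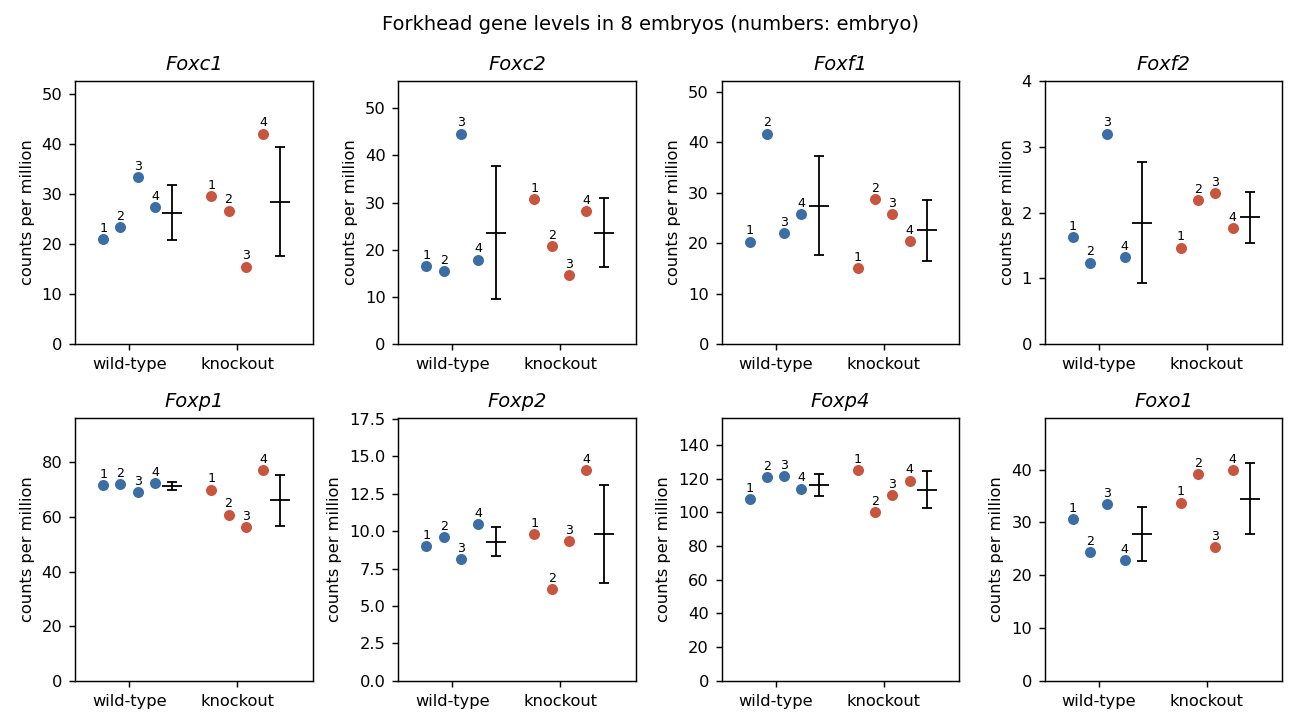
Levels of the 8 members in each embryo, in CPM on axes from 0 (blue, 4 wild-type; red, 4 knockout; numbers give the embryo), with the mean and SD of each genotype in black. The genotypes overlap in every panel, and Foxc2 in wild-type embryo 3 stands at 44.6, above the 15.5 to 17.9 of its group.

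**Figure D2:**
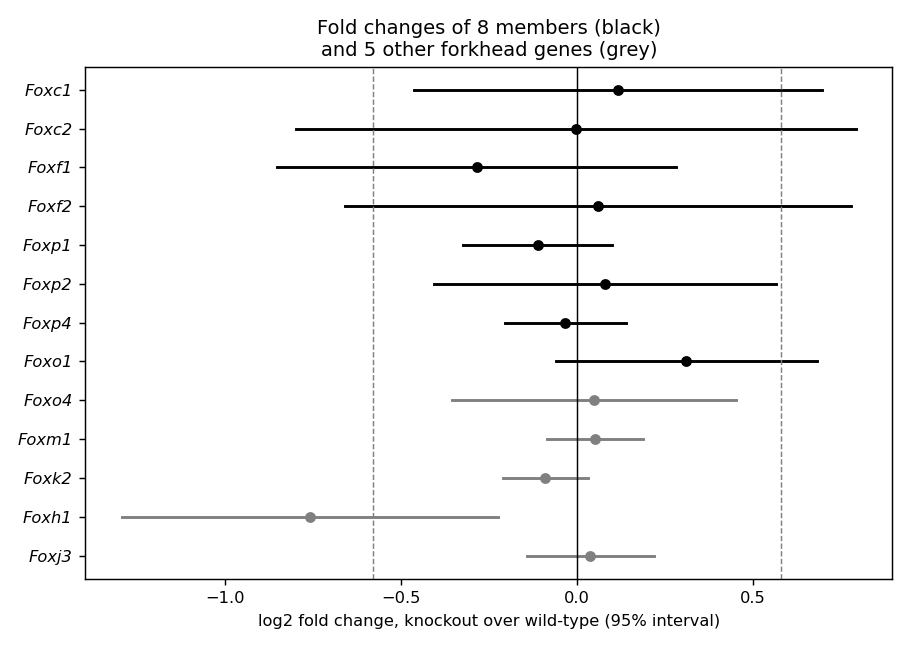
Log2 fold change of knockout over wild-type with its 95% interval from edgeR, for the 8 members (black) and the 5 other forkhead genes with the highest mean RPKM (grey); dashed lines mark 0.58 in either direction, a 1.5-fold change. All 8 member intervals include 0, and those of Foxp1, Foxp2 and Foxp4 stay between the dashed lines.

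Foxc1, a regulator of pharyngeal and paraxial mesoderm, measured 20.9, 23.4, 33.4 and 27.4 CPM in the wild-type embryos, in the order 1 to 4, and 29.7, 26.7, 15.5 and 42.1 CPM in the knockouts, in the same order. The knockout embryos held both the lowest and the highest value of all 8. The mean was 26.3 ± 5.44 CPM in wild-type and 28.5 ± 10.9 CPM in knockout embryos (SD, n = 4). The fitted log2 fold change of 0.12 (SE 0.26, 95% interval -0.46 to 0.70) had an edgeR FDR of 0.848, and p was 0.714 in an exact permutation test of the CPM.

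Foxc2, its close paralogue, measured 16.5, 15.5, 44.6 and 17.9 CPM in wild-type and 30.7, 20.7, 14.6 and 28.2 CPM in knockout embryos. Wild-type embryo 3 was the highest of all and the other 3 wild-type embryos lay below 3 of the 4 knockout embryos. With means of 23.7 ± 14.0 and 23.6 ± 7.31 CPM (SD, n = 4), the estimate was -0.0029 on the log2 scale (SE 0.36, 95% interval -0.80 to 0.79, edgeR FDR 0.997). Without wild-type embryo 3 it was 0.50 (FDR 0.217), so that 1 embryo set the estimate of this gene, still without a call.

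The 2 Foxc genes tended to be high and low in the same embryos, though knockout embryo 4 was highest for Foxc1 and wild-type embryo 3 for Foxc2. Over the 8 embryos their log2 CPM had a Pearson r of 0.77 (exact permutation p = 0.0241, 0.535 after Benjamini-Hochberg adjustment over 28 pairs of members) and a Spearman rho of 0.88 (exact p = 0.0072, adjusted 0.203). Without the 2 embryos farthest from the median of Foxc1, r was 0.88, and after centring each genotype it was 0.76. It was the only pair of the 28 with an unadjusted p of r under 0.05, and no pair passed after adjustment. Reads shared through the near-identical coding stretch of the 2 genes were not tested as a source of this relation. The ratio of Foxc1 to Foxc2 counts within a library, which needs no scaling, was 1.27, 1.51, 0.749 and 1.53 in wild-type and 0.967, 1.29, 1.06 and 1.49 in knockout embryos. Its log2 mean differed by -0.038 between the genotypes (exact permutation p = 0.914, n = 4 each), less than the SD of 0.48 in wild-type embryos.

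Of 12 genes listed as acting downstream of or beside the Foxc genes, 10 were tested. By edgeR 0 of 10 passed the FDR. An unadjusted p under 0.05 was found for 1 higher and 3 lower genes, against 17.4% of all genes tested. The median log2 fold change was 0.03, against 0.0063 over all genes tested. DESeq2 and limma also called 0 of 10. The lowest p belonged to Fgf10, a growth factor of pharyngeal mesoderm with no overlap between the genotypes, at 12.9 to 21.7 CPM in wild-type and 9.31 to 12.7 CPM in knockout embryos (log2 fold change -0.55, edgeR FDR 0.148). Such a lack of overlap was found in 10.3% of all genes tested. The integrin subunit Itgb3 was at 8.29 to 15.9 and 5.99 to 9.41 CPM (log2 fold change -0.67, edgeR FDR 0.157).

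Tbx1, the T-box factor of pharyngeal mesoderm and a known neighbour of the Foxc genes in its regulation, was singled out after its values were seen. It measured 9.01, 7.32, 25.5 and 9.43 CPM in wild-type and 27.1, 24.6, 14.2 and 35.0 CPM in knockout embryos, so that wild-type embryo 3 again sat among the knockout embryos. Its log2 fold change was 0.98 with all embryos (SE 0.40, edgeR FDR 0.248) and 1.56 (FDR 0.0216) without wild-type embryo 3. Foxc2 and Tbx1 had a Pearson r of 0.77 (exact permutation p = 0.0315, adjusted 0.252 over 32 pairs of a Foxc or Foxf gene with a listed gene) and a Spearman rho of 0.76 (exact p = 0.0368, adjusted 0.147), with an r of 0.83 without the 2 embryos farthest from the median of Foxc2. After centring each genotype r was 0.97, and the knockout embryos lay at higher Tbx1 for a given Foxc2 level. Foxc1 and Tbx1 had an r of 0.64 (exact permutation p = 0.0868, adjusted 0.433). Fgf8, of the same list and also named after its values were seen, had a higher r with Foxc2, 0.83 (exact permutation p = 0.0090, adjusted 0.0958). The rho of Fgf8 with Foxc2 was 0.83 (exact p = 0.0154, adjusted 0.147), and r was 0.47 without the 2 farthest embryos.

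The Foxc genes were also set beside the scores of the cell type markers. The pharyngeal and splanchnic mesoderm score, which includes Tbx1, had an r of 0.82 with Foxc1 and 0.79 with Foxc2 (exact permutation p = 0.0139 and 0.0196), and the endoderm score had an r of 0.80 with Foxc2 (exact p = 0.0159). Spearman's rho was 0.90, 0.83 and 0.69 (exact p = 0.0046, 0.0154 and 0.0694), and r without the 2 farthest embryos was 0.97, 0.83 and 0.60. None of the 72 relations of a member with a marker score passed after adjustment (adjusted p of r 0.267 for these 3, and of rho 0.261, 0.335 and 0.357). An unadjusted p of r under 0.05 was found for 10 of the 72. Besides these 3, and those of Foxf1 and Foxo1 given with these genes, they were Foxc2 with the erythroid score (r -0.72, rho -0.64, r -0.12 without the 2 farthest embryos), Foxf2 with the endoderm score (0.82, 0.69 and 0.62), Foxp2 with the visceral endoderm score (-0.71, -0.79 and -0.71), and Foxp4 with the erythroid (-0.78, -0.88 and -0.47) and somite scores (0.73, 0.69 and 0.53). Their exact permutation p of r ran from 0.0127 to 0.0427 (adjusted 0.267 to 0.325) and that of rho from 0.0072 to 0.0962 (adjusted 0.261 to 0.407). The part of tissue composition in the spread of the members was not tested.

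**Figure D3:**
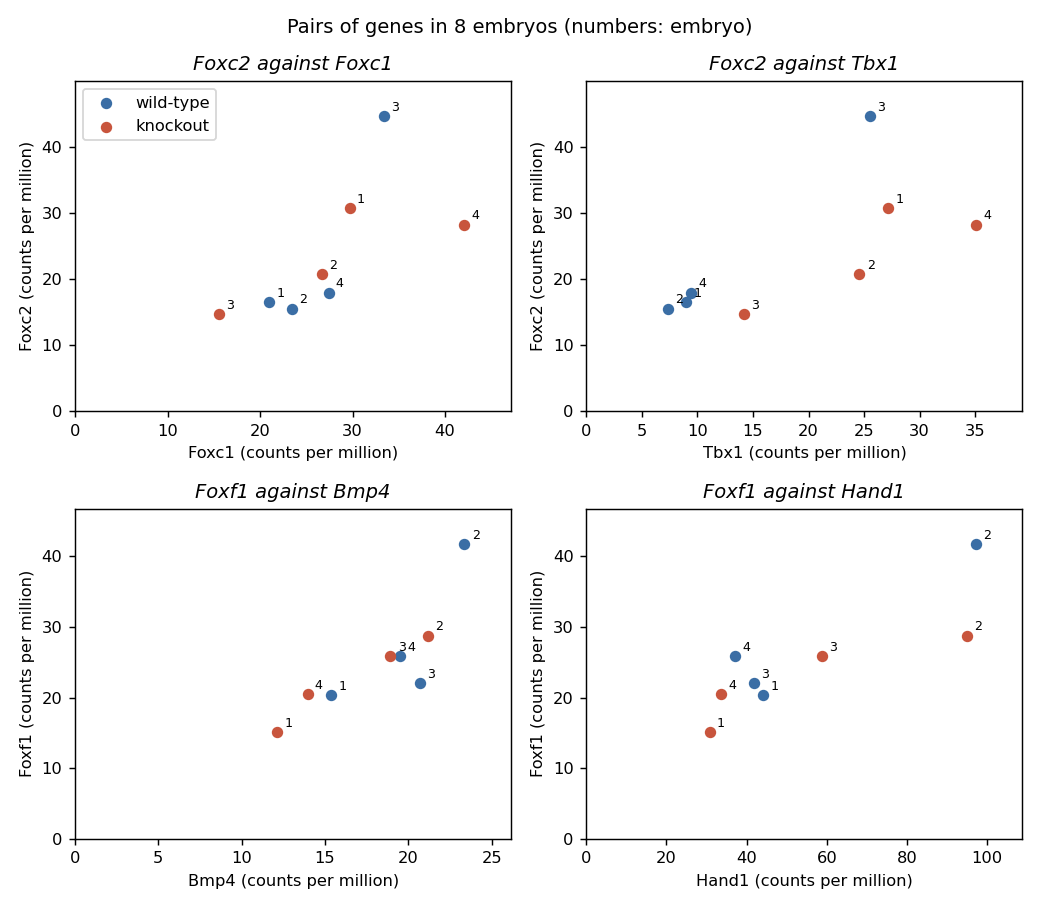
Pairs of genes across the 8 embryos in CPM, on axes from 0 (blue, wild-type; red, knockout; numbers give the embryo). Foxc2 rises with Foxc1 and, within each genotype, with Tbx1, and Foxf1 rises with Bmp4 and Hand1, with wild-type embryo 2 highest in both lower panels.

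Foxf1, a factor of splanchnic and extraembryonic mesoderm, measured 20.3, 41.7, 22.0 and 25.9 CPM in wild-type and 15.1, 28.8, 25.8 and 20.5 CPM in knockout embryos. Wild-type embryo 2 was highest and knockout embryo 1 lowest, with the other 6 values intermingled. The mean was 27.5 ± 9.78 CPM in wild-type and 22.5 ± 6.03 CPM in knockout embryos (SD, n = 4). The log2 fold change of -0.29 (SE 0.25, 95% interval -0.85 to 0.28, edgeR FDR 0.602, exact permutation p = 0.514) came to -0.016 (FDR 0.981) without wild-type embryo 2.

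Foxf2 was the least abundant member, with 28 to 76 reads per library. It was at 1.63, 1.24, 3.20 and 1.33 CPM in wild-type and at 1.47, 2.20, 2.30 and 1.76 CPM in knockout embryos. Wild-type embryo 3 was highest, as for Foxc2. The estimate was 0.06 on the log2 scale (SE 0.32, 95% interval -0.66 to 0.78, edgeR FDR 0.940), and 0.46 (FDR 0.276) without that embryo.

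The ratio of Foxf1 to Foxf2 counts was 12.5, 33.6, 6.87 and 19.4 in wild-type and 10.3, 13.1, 11.2 and 11.6 in knockout embryos. The SD of the log2 ratio was 0.97 in wild-type and 0.14 in knockout embryos, and all 4 knockout values lay inside the wild-type range. The log2 mean differed by -0.42 (exact permutation p = 0.457, adjusted 0.686 over the 3 ratios examined, n = 4 each), and it depended on single embryos, from -0.042 without wild-type embryo 2 (exact p = 0.886) to -0.81 without wild-type embryo 3 (exact p = 0.0571).

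The hedgehog pathway was listed with 16 genes, from ligands to Gli effectors. By edgeR 0 of the 14 tested passed the FDR. An unadjusted p under 0.05 was found for 3, all higher, against 17.4% of all genes tested. The median log2 fold change was 0.06. DESeq2 and limma called 0 of 14. The lowest p belonged to the coreceptors Cdon, at 124 to 145 CPM in wild-type and 144 to 184 CPM in knockout embryos (log2 fold change 0.27, edgeR FDR 0.165), and Boc, at 31.5 to 40.2 and 41.1 to 44.5 CPM (0.27, FDR 0.175). Dhh was too low to be tested and Disp1 was listed at 0 counts in all 8 libraries.

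Of the 8 genes listed as acting downstream of or beside Foxf1, 6 were tested and 2 passed the FDR by edgeR, both lower in the knockout. The estimates of all 6 were below 0, with a median log2 fold change of -0.49. Tbx5, a T-box factor of the posterior heart field and atria, fell from 23.9 to 30.8 CPM in wild-type to 10.2 to 14.3 CPM in knockout embryos, a change of -1.17 on the log2 scale (SE 0.13, edgeR FDR 0.0030), and passed in all 16 alternatives tried. Vcam1, an adhesion molecule of the early myocardium, fell from 23.7 to 31.8 CPM to 14.6 to 19.0 CPM, a change of -0.72 on the log2 scale (SE 0.12, edgeR FDR 0.0216), and passed in 8 of 16 alternatives. Its call was lost without knockout embryo 1, 3 or 4 and without wild-type embryo 1, 2 or 4 (FDR 0.0542 to 0.0828), and with a Y-linked covariate (FDR 0.0887). Both genes are also expressed in cardiomyocytes, whose markers fell in these embryos, and the part of cardiomyocyte content in their decrease was not tested. In Foxf1 itself the values of the genotypes overlapped.

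Foxf1 instead varied with Bmp4 and Hand1, singled out after their values were seen. Bmp4, a ligand of extraembryonic and lateral mesoderm, had a Pearson r of 0.88 with Foxf1 over the 8 embryos (exact permutation p = 0.0023, adjusted 0.0361) and a Spearman rho of 0.90 (exact p = 0.0046, adjusted 0.116). Hand1, a factor of the same tissues, had an r of 0.85 (exact p = 0.0019, adjusted 0.0361) and a rho of 0.76 (exact p = 0.0368, adjusted 0.147). Without the 2 embryos farthest from the median of Foxf1, r was 0.77 and 0.74, and after centring the genotypes it was 0.87 and 0.89. These were the only 2 of the 32 pairs that passed after adjustment, by r and not by rho. Neither gene passed the test between the genotypes (log2 fold change -0.25 for Bmp4 and -0.014 for Hand1, edgeR FDR 0.526 and 0.989). The 2 genes belong to the list of 10 allantois and extraembryonic mesoderm markers, whose score had an r of 0.82 with Foxf1 (exact p = 0.0129, adjusted 0.267) and a rho of 0.67 (exact p = 0.0831, adjusted 0.399), with an r of 0.58 without the 2 farthest embryos. The summed level of that list ran from 235 to 515 CPM in wild-type and from 202 to 579 CPM in knockout embryos, and 8 of its 10 genes were tested. Its defining genes Tbx4 and Hoxa13 were not among the 8, and Hoxa13 was at 0 in all libraries. How much of this tissue was dissected with each embryo was not tested as a source of the Foxf1 values.

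The neighbours of both clusters were read beside the members. On chromosome 8, Mthfsd, which lies between Foxf1 and Foxc2 on the minus strand (123618912 to 123632292), was at 25.5 to 29.5 CPM in wild-type and 24.7 to 29.5 CPM in knockout embryos (log2 fold change -0.025, edgeR FDR 0.905). Foxl1, at 123651840 to 123652929 beyond Foxc2 and annotated there as a pseudogene, had a log2 fold change of -0.12 (FDR 0.861). Irf8, upstream of the cluster at 123260258 to 123280594, was at 0.843 to 1.33 CPM in wild-type and 1.66 to 2.40 CPM in knockout embryos, with no overlap between genotypes (log2 fold change 0.86, SE 0.22, edgeR FDR 0.0987). On chromosome 13, Foxq1, Gmds and Exoc2 had log2 fold changes of 0.28, -0.039 and -0.067 (FDR 0.661, 0.901 and 0.590). By edgeR 0 of the 6 tested neighbours passed the FDR, with 1 (Irf8) at an unadjusted p under 0.05, and DESeq2 and limma called 0 of 6. Of all genes tested, 17.4% had such a p by edgeR and 10.3% had no overlap between genotypes.

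Foxp1, a corepressor-dependent regulator of heart growth, was the steadiest member in the wild-type group. It was at 71.6, 72.1, 69.1 and 72.4 CPM in wild-type and at 70.0, 60.9, 56.2 and 77.0 CPM in knockout embryos, where embryos 2 and 3 lay below every wild-type embryo and embryo 4 above. The coefficient of variation was 2.14% in wild-type and 14.1% in knockout embryos. The log2 fold change was -0.11 (SE 0.095, 95% interval -0.32 to 0.10, edgeR FDR 0.583, exact permutation p = 0.343).

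Foxp4, the most abundant member, was at 108, 121, 122 and 114 CPM in wild-type and at 125, 99.9, 110 and 119 CPM in knockout embryos. The extremes both came from the knockout group. Its log2 fold change of -0.033 (SE 0.077, edgeR FDR 0.854) had the narrowest interval of the 8, from -0.20 to 0.14, or 0.868-fold to 1.10-fold.

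Foxp2, better known from neural and lung development, was at 8.97, 9.58, 8.13 and 10.5 CPM in wild-type and at 9.78, 6.14, 9.31 and 14.0 CPM in knockout embryos. Knockout embryos 2 and 4 lay outside the wild-type range on opposite sides. The log2 fold change was 0.08 (SE 0.22, 95% interval -0.41 to 0.56, edgeR FDR 0.880). The ratio of Foxp1 to Foxp4 counts, 0.568 to 0.664 in wild-type and 0.510 to 0.648 in knockout embryos, differed by -0.085 on the log2 scale (exact permutation p = 0.400, adjusted 0.686, n = 4 each).

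Foxp1, Foxp2 and Foxp4 had 4, 3 and 3 transcript entries, and the lesser entries held at least 96.5% of the count of the entry used, so the choice of entry moved their values little. All 14 listed corepressor genes of the CtBP and NuRD complexes were tested. By edgeR 0 of 14 passed the FDR, with 1 lower at an unadjusted p under 0.05. Among all genes tested, 17.4% had such a p and 10.3% had no overlap between genotypes. The median log2 fold change of the 14 was -0.03. DESeq2 and limma called 0 of 14. The lowest p belonged to the histone chaperone subunit Rbbp4, at 577 to 642 CPM in wild-type and 548 to 569 CPM in knockout embryos, with no overlap (log2 fold change -0.14, edgeR FDR 0.247), followed by the deacetylase Hdac2 (-0.13, FDR 0.442).

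Foxo1, required for vascular and heart development of the embryo, had the largest estimate of the 8 in absolute size. It was at 30.7, 24.3, 33.4 and 22.8 CPM in wild-type and at 33.7, 39.2, 25.3 and 39.8 CPM in knockout embryos. Knockout embryos 1, 2 and 4 lay above the highest wild-type embryo, embryo 1 by a small margin, and knockout embryo 3 lay among the wild-type values. The mean was 27.8 ± 5.04 CPM in wild-type and 34.5 ± 6.75 CPM in knockout embryos (SD, n = 4). The log2 fold change was estimated at 0.31 (SE 0.17, 95% interval -0.06 to 0.68). It did not pass, with an edgeR FDR of 0.371 and an exact permutation p = 0.114. The interval allowed between 0.959-fold and 1.61-fold of the wild-type level. Across the embryos Foxo1 ran opposite to the cardiomyocyte score, with a Pearson r of -0.74 (exact permutation p = 0.0451, adjusted 0.325), a Spearman rho of -0.76 (exact p = 0.0368, adjusted 0.357), an r of -0.50 without the 2 farthest embryos and -0.72 after centring each genotype. The part of cardiomyocyte content in the Foxo1 values was not tested.

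Of the 16 listed genes of the PI3K-Akt pathway, 0 passed the FDR by edgeR. An unadjusted p under 0.05 was found for 2 higher and 1 lower genes, against 17.4% of all genes tested. The median log2 fold change of the list was 0.02, and DESeq2 and limma called 0 of 16. The receptor Igf1r, at 116 to 139 CPM in wild-type and 132 to 171 CPM in knockout embryos, had a log2 fold change of 0.22 (edgeR FDR 0.237). Of the 12 listed Foxo targets, 1 passed the FDR by edgeR. Estimates were higher for 6 and lower for 6 (median -0.025), while all 4 with an unadjusted p under 0.05 were lower. That p was met by 17.4% of all genes tested. DESeq2 called 2, both lower, and limma 0. The gene called by edgeR was Fbxo32, a ubiquitin ligase subunit of muscle, which fell from 44.8 to 54.0 CPM in wild-type to 29.0 to 35.3 CPM in knockout embryos (log2 fold change -0.59, SE 0.09, edgeR FDR 0.0123). It is a known Foxo target and also a muscle gene. Its call was lost without wild-type embryo 1 (FDR 0.0570) and in limma on log2(RPKM + 1) (FDR 0.0680). DESeq2 also called Klf2, an endothelial factor responsive to flow (log2 fold change -2.41, DESeq2 FDR 0.0114). Klf2 measured 13.1, 20.1, 2.44 and 4.64 CPM in wild-type and 1.28 to 2.72 CPM in knockout embryos, so that wild-type embryo 3 lay within the knockout range, and its edgeR FDR was 0.0866.

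**Figure D4:**
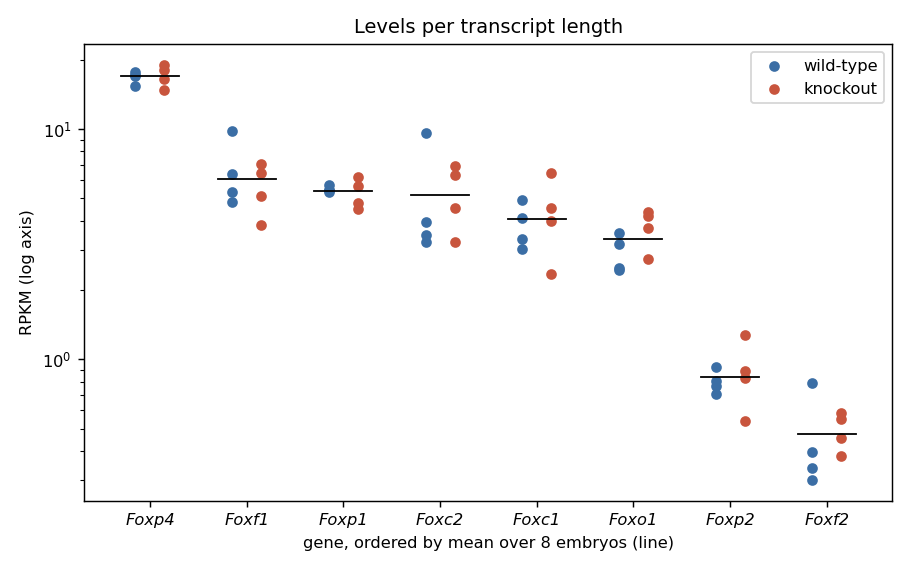
Levels of the 8 members per transcript length, as deposited RPKM on a log axis, in order of the mean over 8 embryos (line) with 1 point per embryo (blue, wild-type; red, knockout). Foxp4 lies above all others in every embryo, and Foxp2 and Foxf2 lie below the other 6 in every embryo.

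Compared per transcript length, in RPKM as deposited (reads scaled to transcript length and library total), the members ran from Foxp4 at 17.0 ± 1.37 down to Foxf2 at 0.475 ± 0.163 (SD, n = 8). Foxp4 was higher than Foxf1, the next, in 8 of 8 embryos. Foxf1 (6.09 ± 1.82), Foxp1 (5.39 ± 0.542), Foxc2 (5.15 ± 2.27), Foxc1 (4.08 ± 1.26) and Foxo1 (3.33 ± 0.743) followed, and each of the first 4 of these was above its next neighbour in the order in only 4 or 5 of 8 embryos, so that these neighbours were not set apart beyond their spread. Genes farther apart in the order were, as Foxf1, Foxp1 and Foxc2 were each above Foxo1 in 8 of 8 embryos. Foxo1 was higher than Foxp2 (0.842 ± 0.21) in 8 of 8 embryos, and Foxp2 higher than Foxf2 in 6 of 8. Foxp4 lay above 78.2% of the genes tested by mean RPKM, and Foxf2 above 13.1%.

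Within the forkhead family of 44 symbols, Foxp4 ranked 4 by mean RPKM, behind Foxo4 (20.6), Foxm1 (19.7) and Foxk2 (17.3). The 8 members took 22.9% to 26.7% of the summed forkhead RPKM of an embryo. Of the 36 other forkhead genes 28 were tested and 0 passed the FDR by edgeR, with a median log2 fold change of 0.03. At an unadjusted p under 0.05 there were 2 higher and 1 lower, against 17.4% of all genes tested. DESeq2 called 2 of 28, Foxi2 higher and Foxh1 lower, and limma 0. The 5 with the highest mean RPKM had log2 fold changes of 0.05 (Foxo4), 0.05 (Foxm1), -0.09 (Foxk2), -0.76 (Foxh1) and 0.04 (Foxj3), with edgeR FDR of 0.157 for Foxh1 and 0.424 to 0.912 for the other 4.

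The members differed in their spread among embryos of 1 genotype. The pooled SD of log2 CPM within a genotype was 0.61 for Foxc2, 0.48 for Foxf2, 0.47 for Foxc1 and 0.44 for Foxf1, against 0.28 for Foxo1, 0.15 for Foxp1 and 0.11 for Foxp4. Among the 500 tested genes nearest in level, the share with a smaller SD was 98.2% for Foxc2, 97.0% for Foxc1, 96.0% for Foxf1 and 93.8% for Foxo1, but 66.6% for Foxp1 and 51.4% for Foxp4. Foxf2, at few reads, lay at 73.8% and Foxp2 at 86.4%.

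The genes most like each member, by Pearson r of log2 CPM over the 8 embryos among the 14075 genes tested, are given as a description. For Foxc1 they were Zfp26 (0.98) and Six4 (0.97), and for Foxc2 Sipa1l1 (0.97) and Ephb3 (0.97). For Foxf1 they were Dnm3 (0.97) and Hlx (0.95), and for Foxf2 Ndufaf6 (0.95) and Acads (0.94). For Foxp1 they were Rnf170 (0.97) and Sp3 (0.96), for Foxp2 2700049A03Rik (0.98) and Tbx6 (0.97), and for Foxp4 Ctbp2 (0.92) and Fam217b (0.92). For Foxo1 they were Six2 (0.98) and Sdc3 (0.98). The number of genes with an r above 0.9 was 118 for Foxc2, 44 for Foxc1, 36 for Foxo1, 25 for Foxf2, 18 for Foxp1, 13 for Foxf1, 11 for Foxp2 and 2 for Foxp4. All 8 points of each correlation share their library and its tissue makeup with every other gene. Ctbp2, a corepressor, is also on the list of proteins that Foxp factors bind.

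**Figure D5:**
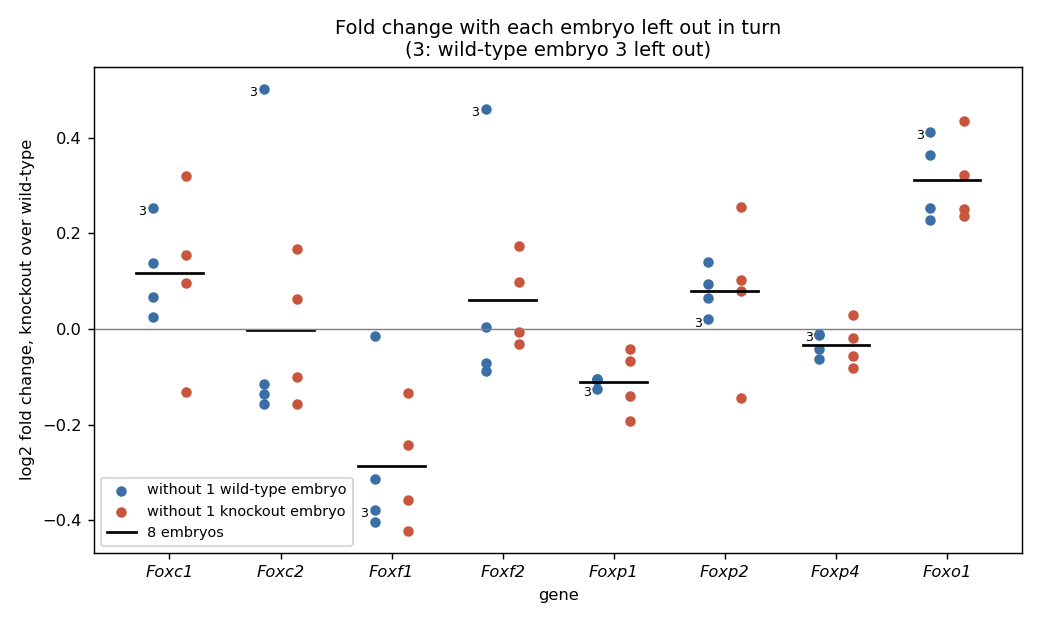
Log2 fold change of knockout over wild-type for each member with all 8 embryos (black line) and with 1 embryo left out in turn (blue, a wild-type embryo left out; red, a knockout embryo; the 3 marks the fit without wild-type embryo 3). Foxc2 and Foxf2 move most, to 0.50 and 0.46 without wild-type embryo 3, while Foxo1 stays above 0 and Foxf1 and Foxp1 below 0.

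With each embryo left out in turn, the estimates of Foxo1 stayed between 0.23 and 0.43, those of Foxp1 between -0.19 and -0.04 and those of Foxf1 between -0.42 and -0.016. The estimates of the other 5 took both signs. In none of these fits did a member pass the FDR, and the lowest value reached was that of Foxo1 without wild-type embryo 3 (log2 fold change 0.41, edgeR FDR 0.180). Without knockout embryo 2, the library labelled total RNA, Foxo1 was at 0.25 (FDR 0.508). With a Y-linked covariate, which bears on the unequal sexes of the groups, the estimates moved to 0.47 for Foxo1 (edgeR FDR 0.339), 0.29 for Foxf2 (FDR 0.762), -0.15 for Foxf1 (FDR 0.848), 0.059 for Foxc1 (FDR 0.952) and -0.089 for Foxp4 (FDR 0.691).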

How the data were processed

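Libraries were made from 100 ng of RNA of single embryos. The authors mapped the reads to mm9 with STAR, counted exonic reads of RefSeq transcripts with HOMER, without regard to strand, and deposited these raw counts, the transcript length in bases and RPKM values made with edgeR. The submitters' processing notes also name DESeq2, and versions are not given in the sources used here. The deposited columns of the authors' own comparison (fold changes and p-values) were not used.

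Here each symbol was represented by its entry with the highest summed count. Of 20701 symbols, 14075 passed filterByExpr and were fitted with edgeR 4.0.16 (R 4.3.3), using TMM scaling, a quasi-likelihood test of genotype, two-sided, and Benjamini-Hochberg adjustment over all genes fitted (FDR). DESeq2 1.42.0 and limma 3.58.1, on log2 of RPKM with a pseudocount of 1, were alternatives. Ratios, CPM and correlations were compared by exact permutation (two-sided), where 4 against 4 cannot go below p = 0.0286. Each sample was 1 embryo, and the scripts were tested on simulated data. Library totals were 18916452 to 26153039 counts, and with no molecular identifiers the precision they give covers counting error only.

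The members and gene lists were chosen with earlier results of these data known. Genes were named by rule: the members, Isl1, the cluster neighbours, other forkhead genes past the FDR or the 5 with the highest mean RPKM, of each list those past the FDR or otherwise the 2 with the lowest p, and the 2 genes most like each member. Genes outside the rule are said to be chosen after their values were seen. Foxi2, Klf2 and Hhex were named because DESeq2 called them, also after the results were seen. A gene that the rule would name is not reported here.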

Additional observations from a re-analysis of the deposited data

Results flagged for a closer look

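Foxc2 in wild-type embryo 3 stood at 44.62 CPM, apart from the other 3 wild-type embryos, of which the nearest was at 17.94 CPM. The gap took 0.917 of the range of the group, more than Dixon's 95% critical value allows for 4 samples. It was the only one among 22 groups of 4 values examined, and chance alone marks about 1 group in 20. The same embryo was also highest of the wild-type embryos for Foxc1, Foxf2, Tbx1 and Isl1 and had the lowest cardiomyocyte score of its genotype, 0.021.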

How the results depend on the processing

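In all 16 alternatives the number of members past the FDR was 0. Of 128 alternative estimates of the members' log2 fold changes, 110 kept their sign and 18 reversed, with FDR of 0.180 or more in each. Foxc2, at -0.0029, became 0.0070 under RLE scaling, 0.010 with no filter, 0.0056 in DESeq2, 0.11 in limma and 0.07 with the Y-linked covariate, which made Foxp2 -0.23 and moved Foxo1 to 0.47, Foxf2 to 0.29 and Foxf1 to -0.15, while limma made Foxp4 0.019. With each embryo left out in turn the ranges were -0.13 to 0.32 for Foxc1, -0.16 to 0.50 for Foxc2, -0.088 to 0.46 for Foxf2, -0.14 to 0.26 for Foxp2, -0.083 to 0.029 for Foxp4 with -0.27 to 0.072 for the log2 ratio of Foxc1 to Foxc2 and -0.81 to -0.042 for that of Foxf1 to Foxf2. The cause of these reversals was not tested. The count of genes past the FDR, 137, was 709 in DESeq2 and 70 to 490 with 1 embryo left out, the highest without wild-type embryo 3. The study's thresholds, applied here to the edgeR fold changes and unadjusted p, called 553 genes. The replicate block gave 76 genes past the FDR and a Foxc2 value of 0.12, changed no member's call and, of the listed genes named, lost that of Vcam1 (FDR 0.0571). It called 4 of the 10 cardiomyocyte markers, against 8 in the main fit. Replicate numbers were not taken to pair embryos. Same-numbered embryos correlated at 0.104, 0.218, 0.0906 and 0.497, all above 0, while the other combinations ran from -0.672 to 0.55. Of the wild-type embryos, only embryo 1 correlated best with its own number. These correlations do not settle whether the numbers mark pairs. Foxf2, at 28 to 76 reads per library, is the member that depth limits most.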
